A study of Mus musculus with 10 samples.

Results

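The genes described here are 10 genes of iron handling, picked by name from the 24015 genes of the count table: the uptake genes Tfrc, Steap3, Slc11a2 and Slc11a1, the ferritin genes Fth1 and Ftl1, the exporter Slc40a1, the heme-degrading enzyme Hmox1 and the iron sensors Ireb2 and Aco1. All 10 passed the filter on low counts and were among the 12971 genes tested. The measurement was bulk RNA-seq of MAF9 cells, mouse bone marrow cells of C57BL/6 genotype transduced with the MLL-AF9 fusion oncogene, grown with interleukin-3 at 10 ng/ml and 15% serum. All 10 libraries came from cells carrying MLL-AF9, so untransduced cells formed no group. For 4 days the cells received DMSO, the solvent control, or an inhibitor at its IC50 dose, with 2 libraries for each of the 5 conditions. MM401 blocks the contact between MLL1 and WDR5, EPZ inhibits the histone methyltransferase DOT1L, MI targets MENIN, and iBET targets the BET bromodomain proteins. The study's methods speak of biological duplicates for RNA from such treatments, in a section that goes on to real-time PCR, and do not say whether these were separate cultures. The p-values measure the spread between these libraries.

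Cells take up most of their iron as transferrin bound to the transferrin receptor, reduce it in the endosome, and carry it across the membrane with a divalent metal transporter. Iron that is not used is stored inside ferritin, a shell of heavy and light chains, or leaves through ferroportin. When iron is scarce, iron regulatory proteins bind a hairpin called the iron-responsive element, which blocks translation when it lies in the 5′ untranslated region of a message and protects the message when it lies in the 3′ untranslated region. Macrophages recycle iron from red cells and are rich in ferroportin, heme oxygenase and the phagosomal transporter encoded by Slc11a1, and dividing cells carry much transferrin receptor. Message levels, which are what was counted here, do not report the translational arm of this control.

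The hairpins are shown because they mark which messages held the motif of this control and on which side of the coding sequence. The motif searched on the transcript strand was a C, 5 bases of the upper stem and the loop CAGTGN, with 5 upper pairs and at least 3 of 5 lower pairs, in the untranslated regions of GENCODE mouse transcripts, and 46 of 21157 genes (0.217%) held it. Of the 10 iron handling genes, 4 held it. A match is a description of the letters and not a tested binding site. A gene without a match is not thereby shown to lack such a hairpin, since the motif was strict. Capitals mark the 6 loop bases, and coordinates are those of build GRCm38, found by matching to the reference transcripts and not taken from the count table.
Fth1, 5′ untranslated region, exon 1 of 4, chr19:9982733-9982759, plus strand: tcctgcttcaaCAGTGCttgaacggaa
Ftl1, 5′ untranslated region, exon 1 of 4, chr7:45459780-45459806, minus strand: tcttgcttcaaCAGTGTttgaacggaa
Slc40a1, 5′ untranslated region, exon 1 of 8, chr1:45925466-45925492, minus strand: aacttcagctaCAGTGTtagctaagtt
Tfrc, 3′ untranslated region, exon 19 of 19, chr16:32631220-32631246, plus strand: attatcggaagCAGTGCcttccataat
Tfrc, the same exon, chr16:32631599-32631625, plus strand: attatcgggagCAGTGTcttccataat
Tfrc, the same exon, chr16:32631664-32631690, plus strand: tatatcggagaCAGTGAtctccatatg
Tfrc, the same exon, chr16:32631711-32631737, plus strand: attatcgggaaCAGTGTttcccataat
The genes with a match in the 5′ untranslated region were the ferritin genes and the exporter gene Slc40a1. The gene with 4 matches in its 3′ untranslated region was Tfrc, and the other uptake genes held no match. In the wider list of iron genes described further on, Alas2 also held a match.

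Library totals ranged from 20394762 to 29473127 counted reads. DMSO replicate 2 stood apart: 4 Y-linked genes had 3630 reads together there and 0 to 2 in each of the other 9 libraries, Xist stood at 4.65 CPM (counts per 1000000 reads) against 1026 to 2818, and the lymphoid and NK markers summed to 65.9 CPM against 0.0884 to 5.88. The 2 DMSO libraries were therefore not drawn from 1 cell population. Between the DMSO replicates 21.2% of genes were more than 2-fold apart, against 5.38% with MM401, 6.88% with EPZ, 7.29% with MI and 7.05% with iBET. Of the iron handling genes Tfrc, Steap3, Slc40a1 and Hmox1 were among them, by 2.36-fold, 2.54-fold, 2.55-fold and 3.49-fold. Changes of the 10 genes against DMSO that turned on this library are given also without it.

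Markers of cell types also moved between conditions. The 8 neutrophil markers summed to 259 to 867 CPM with DMSO, 1243 to 1476 with MM401, 20754 to 26316 with EPZ, 20294 to 20583 with MI and 114 to 242 with iBET. The 10 macrophage and monocyte markers summed to 121 to 124 CPM with DMSO, 191 to 209 with MM401, 416 to 524 with EPZ, 466 to 839 with MI and 80.6 to 114 with iBET. The 8 myeloid progenitor markers summed to 10025 to 13854 CPM with DMSO, 11033 to 11396 with MM401, 3208 to 3424 with EPZ, 2099 to 2791 with MI and 6116 to 6934 with iBET. The 12 erythroid markers summed to at most 16.5 CPM in any library, with 6 to 8 of them at 0 reads, so the defining genes of red-cell precursors were at or near 0. In bulk RNA, a change in the share of cells of a type and a change of RNA per cell cannot be told apart.

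Levels below are CPM after TMM scaling, and a log2 fold change is given with its standard error from 1 edgeR quasi-likelihood fit of all 10 libraries. A gene was called at an adjusted p (Benjamini-Hochberg over the 12971 genes) below 0.05. Against DMSO, EPZ changed 7 of the 10 genes (5 higher, 2 lower), beside 38.1% of all genes called. Scaled to library totals the EPZ split was 3 higher and 3 lower, while those of MI and iBET stayed at the counts given next. MI changed 8 (5 higher, 3 lower), beside 41.4%, and iBET changed 3, all higher, beside 13.9%. MM401 changed 0, beside 0.0%, and 0 of the 10 had an unadjusted p below 0.05 (11.2% of all genes did). DESeq2 called 7, 8, 5 and 0. The median log2 fold change of the 10 genes was 0.50 with EPZ, 0.58 with MI, 0.42 with iBET and 0.04 with MM401, against -0.06, -0.05, -0.04 and -0.01 over all genes. The 2 libraries of a treatment lay wholly above or below the DMSO libraries for 8 genes with EPZ (64.7% of all genes), 8 with MI (67.9%), 7 with iBET (54.6%) and 2 with MM401 (37.3%). Leaving out EPZ replicate 2 lowered the EPZ count to 4, leaving out MI replicate 1 or 2 the MI count to 4 or 3, and for iBET the count was 6 without DMSO replicate 1 and 0 without iBET replicate 2. The inhibitors share the DMSO libraries, so their changes against DMSO are not independent of each other.

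**Figure D1:**
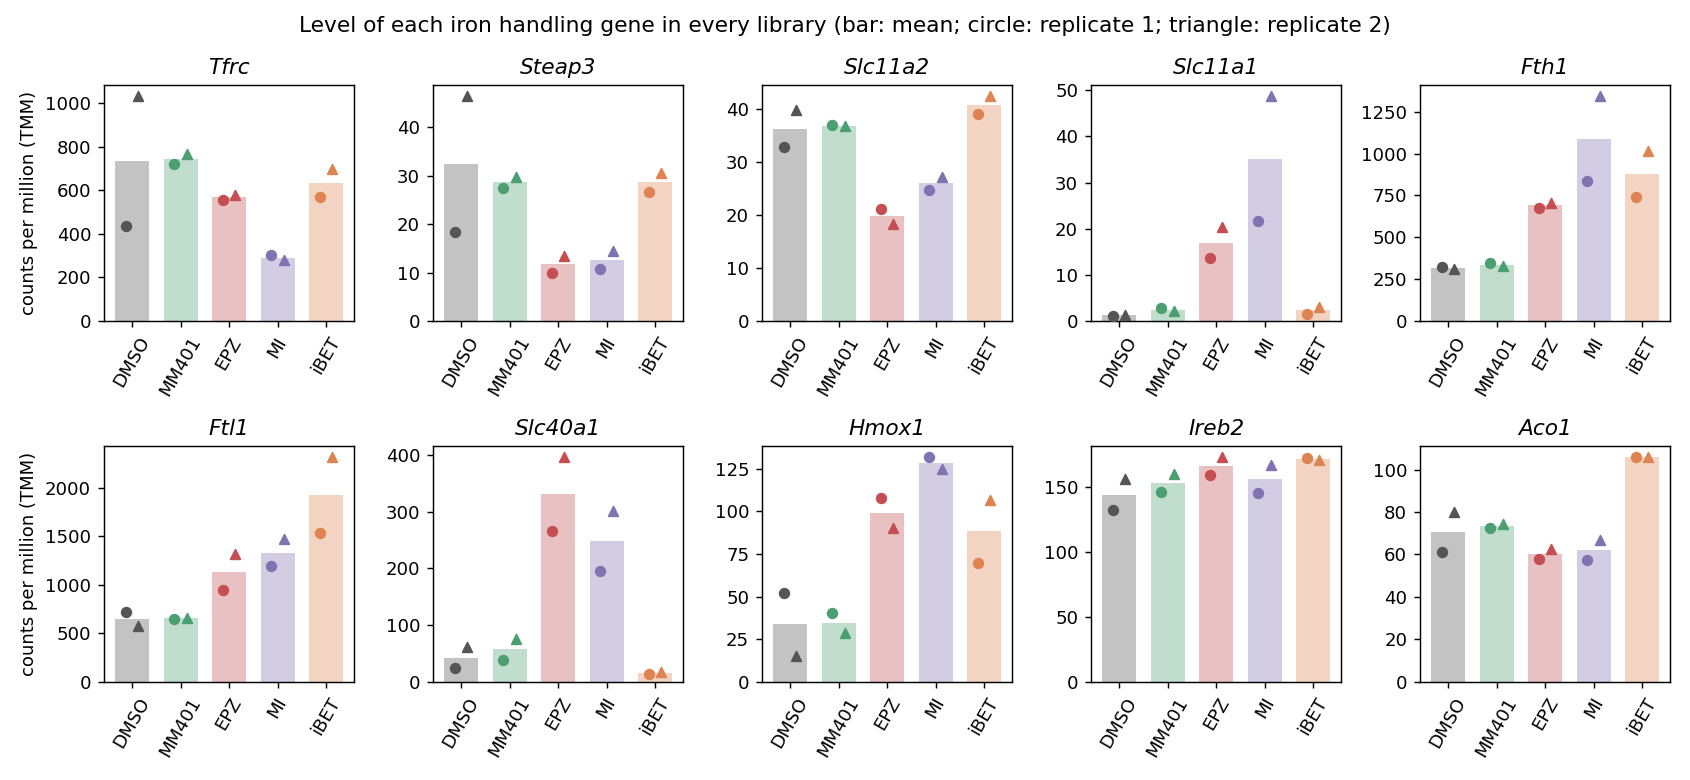
Level of each iron handling gene in CPM after TMM scaling (vertical axis, linear from 0) for the 5 conditions. Bars are means of 2 libraries, circles replicate 1 and triangles replicate 2. Both ferritin genes stood at their lowest with DMSO and MM401, and Slc40a1 and Slc11a1 were high with EPZ and MI alone.

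Tfrc, which encodes the transferrin receptor, stood at 436 and 1031 CPM in the DMSO replicates and at 718 and 764 with MM401. It was at 554 and 579 CPM with EPZ, 302 and 279.8 with MI, and 567 and 699 with iBET. The MI libraries were the lowest of the 10, and the EPZ, MM401 and iBET libraries all lay between the DMSO replicates. MI lowered Tfrc by a log2 fold change of -1.33 ± 0.34 (adjusted p = 0.0164, edgeR). The change was -1.82 without DMSO replicate 1 and -0.55 (adjusted p = 0.023) without DMSO replicate 2, and the call was lost without MI replicate 1 or MI replicate 2 (adjusted p = 0.0684 and 0.0948). With EPZ the log2 fold change was -0.37 ± 0.34 (adjusted p = 0.407), and it was -0.86 (adjusted p = 0.00274) without DMSO replicate 1 and 0.40 (adjusted p = 0.0762) without DMSO replicate 2. With iBET it was -0.21 ± 0.34 (adjusted p = 0.701), and it passed the threshold in opposite directions without DMSO replicate 1 (-0.70, adjusted p = 0.0139) and without DMSO replicate 2 (0.53, adjusted p = 0.0448). Tfrc therefore gave no direction for EPZ or iBET that held against both DMSO libraries.

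Steap3, the endosomal ferrireductase that works beside the transferrin receptor, was at 18.3 and 46.4 CPM with DMSO. It was at 27.5 and 29.7 CPM with MM401, 10.0 and 13.5 with EPZ, 10.8 and 14.5 with MI, and 26.7 and 30.5 with iBET. All 4 EPZ and MI libraries lay below the other 6. The log2 fold change was -1.46 ± 0.40 with EPZ (adjusted p = 0.023) and -1.35 ± 0.40 with MI (adjusted p = 0.0273). Without DMSO replicate 2 these were -0.61 (adjusted p = 0.0724) and -0.50 (adjusted p = 0.124). The EPZ call was also lost without EPZ replicate 1 or EPZ replicate 2 (adjusted p = 0.123 and 0.069), and the MI call without MI replicate 1 or MI replicate 2 (adjusted p = 0.14 and 0.0776). With iBET the log2 fold change was -0.18 ± 0.39 (adjusted p = 0.79), and it was 0.64 (adjusted p = 0.0873) without DMSO replicate 2.

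Slc11a2 encodes DMT1, the transporter that moves ferrous iron out of the endosome. It stood at 32.9 and 39.7 CPM with DMSO, 36.9 and 36.8 with MM401, 21.2 and 18.3 with EPZ, 24.8 and 27.2 with MI, and 39.1 and 42.4 with iBET. The EPZ libraries were the lowest and the MI libraries came next, with no overlap with any other group. EPZ lowered it by -0.88 ± 0.15 on the log2 scale (adjusted p = 0.00363), and this call was kept without any one of the 10 libraries, at -1.01 to -0.71. MI lowered it by -0.48 ± 0.15 (adjusted p = 0.0331), and this call was lost without DMSO replicate 2 (-0.31, adjusted p = 0.14) and without any one of the MM401, MI and iBET libraries (adjusted p = 0.058 to 0.155 over these 7). With iBET the log2 fold change was 0.16 ± 0.15 (adjusted p = 0.476).

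Slc11a1 encodes NRAMP1, which pumps divalent metal out of the phagosome of macrophages and neutrophils. C57BL/6 mice carry an allele of it whose protein does not work, so its level here is that of a message only. It was nearly silent with DMSO, at 1.13 and 1.29 CPM (29 and 27 reads), and stood at 2.83 and 2.10 CPM with MM401 and 1.59 and 3.10 with iBET. With EPZ it rose to 13.7 and 20.3 CPM and with MI to 21.7 and 48.7. Every EPZ and MI library lay above every other library. The log2 fold change was 3.81 ± 0.51 with EPZ (adjusted p = 0.00148) and 4.86 ± 0.52 with MI (adjusted p = 0.000768), the largest changes of the 10 genes against DMSO, and both calls held without any one library (3.50 to 4.07 and 4.16 to 5.33). With iBET it was 0.96 ± 0.49 (adjusted p = 0.222).

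The 2 transporters of the same family thus changed in opposite directions with EPZ and MI, as each gene's own test showed. Per kilobase of transcript, Slc11a1 stood at 0.0426 to 0.1 of the level of Slc11a2 in the DMSO, MM401 and iBET libraries and at 0.846 to 2.33 of it with EPZ and MI.

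Fth1, the ferritin heavy chain that oxidizes iron for storage, was at 323 and 311 CPM with DMSO and 345 and 329 with MM401. It was at 678 and 702 CPM with EPZ, 835 and 1343 with MI, and 738 and 1017 with iBET. All 6 libraries of these inhibitors lay above all 4 of DMSO and MM401. The log2 fold change was 1.12 ± 0.24 with EPZ (adjusted p = 0.0086), 1.78 ± 0.24 with MI (adjusted p = 0.0015) and 1.47 ± 0.24 with iBET (adjusted p = 0.00984). The DMSO libraries hardly mattered for it: the 3 changes were 1.15, 1.81 and 1.5 without DMSO replicate 1 and 1.12, 1.79 and 1.44 without DMSO replicate 2. The EPZ and MI calls held without any one library, while the iBET call was lost without iBET replicate 2 (1.22, adjusted p = 0.0736).

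Ftl1, the ferritin light chain, was at 724 and 571 CPM with DMSO and 646 and 662 with MM401. It was at 942 and 1316 CPM with EPZ, 1192 and 1474 with MI, and 1532 and 2319 with iBET, again with no overlap with DMSO or MM401. The log2 fold change was 0.80 ± 0.26 with EPZ (adjusted p = 0.0402), 1.04 ± 0.26 with MI (adjusted p = 0.0142) and 1.57 ± 0.26 with iBET (adjusted p = 0.0101). The EPZ call was the least firm: it was lost without DMSO replicate 2 (0.66, adjusted p = 0.108), EPZ replicate 2, or any one of the MM401 and MI libraries (adjusted p = 0.0548 to 0.217 over these 6). The MI call was lost without MI replicate 2 (0.88, adjusted p = 0.085) and the iBET call without iBET replicate 2 (1.25, adjusted p = 0.0728).

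Both ferritin genes have processed pseudogenes of nearly the same sequence, and how reads that map to several places were counted is not given in the sources used here, so their absolute levels are uncertain. Per kilobase of transcript, Ftl1 stood at 1.05 to 2.19 times Fth1 over the 10 libraries. The ratio was lowest in the MI libraries, at 1.37 and 1.05, and highest in iBET replicate 2, at 2.19. The ratio of Fth1, a storage gene, to Tfrc, an uptake gene, was 3.89 and 1.59 per kilobase with DMSO and 2.53 and 2.27 with MM401. It was 6.44 and 6.38 with EPZ, 14.6 and 25.3 with MI, and 6.85 and 7.66 with iBET, so each of these 6 libraries exceeded each of the 4 others.

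**Figure D2:**
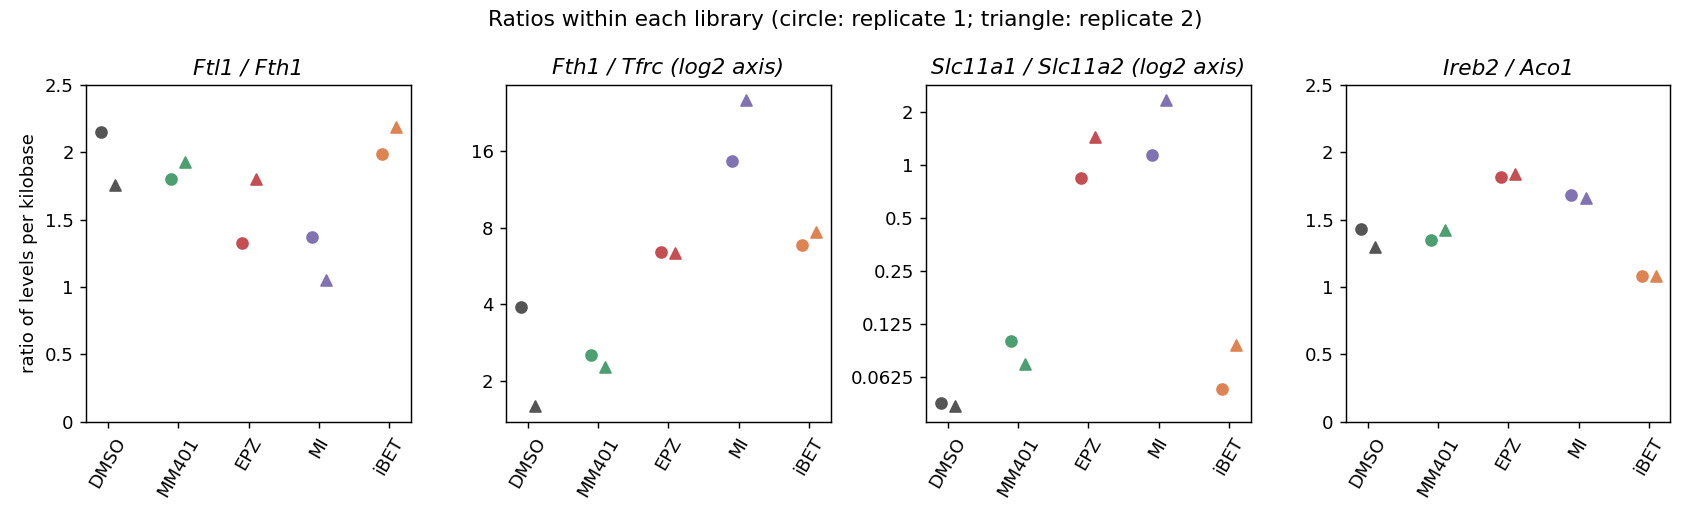
Ratio of the levels per kilobase of transcript within each library for 4 pairs of iron handling genes (the middle panels have a log2 axis, the outer ones a linear axis from 0). Circles are replicate 1 and triangles replicate 2. Fth1 over Tfrc was highest with MI (14.6 and 25.3), Slc11a1 over Slc11a2 was 0.846 to 2.33 with EPZ and MI, and Ireb2 over Aco1 was lowest with iBET (1.08 in both libraries).

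Slc40a1 encodes ferroportin, the only known exporter of iron from mammalian cells. It was at 24.1 and 61.4 CPM with DMSO and 38.0 and 76.0 with MM401. With EPZ it stood at 267 and 397 CPM, with MI at 195 and 302, and with iBET at 14.5 and 17.4. The EPZ and MI libraries lay above all others and the iBET libraries below all others. The log2 fold change was 2.96 ± 0.51 with EPZ (adjusted p = 0.00386) and 2.54 ± 0.50 with MI (adjusted p = 0.00605), and both calls were kept without any one library. The choice of DMSO library moved their size, to 2.44 and 2.02 without DMSO replicate 1 and to 3.80 and 3.40 without DMSO replicate 2. With iBET it was -1.42 ± 0.50 and missed the threshold (adjusted p = 0.0929). That value was -1.94 (adjusted p = 0.0145) without DMSO replicate 1, -0.60 (adjusted p = 0.342) without DMSO replicate 2, and called by DESeq2 (adjusted p = 0.014).

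Hmox1, heme oxygenase 1, frees iron from heme and is a common target of the factors NRF2 and BACH1. It differed most between the DMSO replicates, at 52.4 and 15.0 CPM, and was at 40.3 and 28.5 with MM401. It stood at 108 and 90.1 CPM with EPZ, 132 and 125 with MI, and 70 and 107 with iBET. All 6 of these libraries lay above the DMSO and MM401 libraries. The log2 fold change was 1.55 ± 0.50 with EPZ (adjusted p = 0.0414), 1.93 ± 0.50 with MI (adjusted p = 0.0178) and 1.39 ± 0.50 with iBET (adjusted p = 0.0984). The sizes rested on DMSO: without DMSO replicate 1 they were 2.73, 3.10 and 2.57 (adjusted p = 0.00192 for iBET), and without DMSO replicate 2 they were 0.94, 1.33 and 0.76. The EPZ call was lost without any one of the 8 inhibitor libraries (adjusted p = 0.0592 to 0.138), and the MI call without MI replicate 1 or MI replicate 2 (adjusted p = 0.0627 and 0.0634). For iBET, DESeq2 gave an adjusted p of 0.0221.

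Ireb2 encodes IRP2 and Aco1 encodes IRP1, which serves as the cytosolic aconitase when it holds an iron-sulfur cluster. Ireb2 was the flattest of the genes, at 132 and 156 CPM with DMSO, 146 and 159.8 with MM401, 159 and 173 with EPZ, 145 and 167 with MI, and 172 and 171 with iBET. Its log2 fold changes were 0.20 ± 0.13, 0.12 ± 0.13 and 0.25 ± 0.13 with EPZ, MI and iBET, with adjusted p of 0.24, 0.495 and 0.218. Aco1 stood at 61.3 and 79.9 CPM with DMSO, 72.3 and 74.5 with MM401, 58.1 and 62.5 with EPZ, 57.5 and 67.0 with MI, and 106 in each iBET library. The iBET libraries were the highest, and they raised Aco1 by 0.59 ± 0.15 on the log2 scale (adjusted p = 0.0366). That change was 0.41 without DMSO replicate 1 and 0.79 without DMSO replicate 2, and its call was lost without any one of the 8 inhibitor libraries (adjusted p = 0.0512 to 0.16). With EPZ and MI, Aco1 had log2 fold changes of -0.23 ± 0.15 (adjusted p = 0.245) and -0.18 ± 0.15 (adjusted p = 0.344). Both passed the threshold without DMSO replicate 1, at -0.40 (adjusted p = 0.0279) and -0.36 (adjusted p = 0.0417). Per kilobase, Ireb2 exceeded Aco1 in every library, by 1.30 to 1.43 times with DMSO and MM401, 1.66 to 1.84 times with EPZ and MI, and 1.08 times in both iBET libraries.

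**Figure D3:**
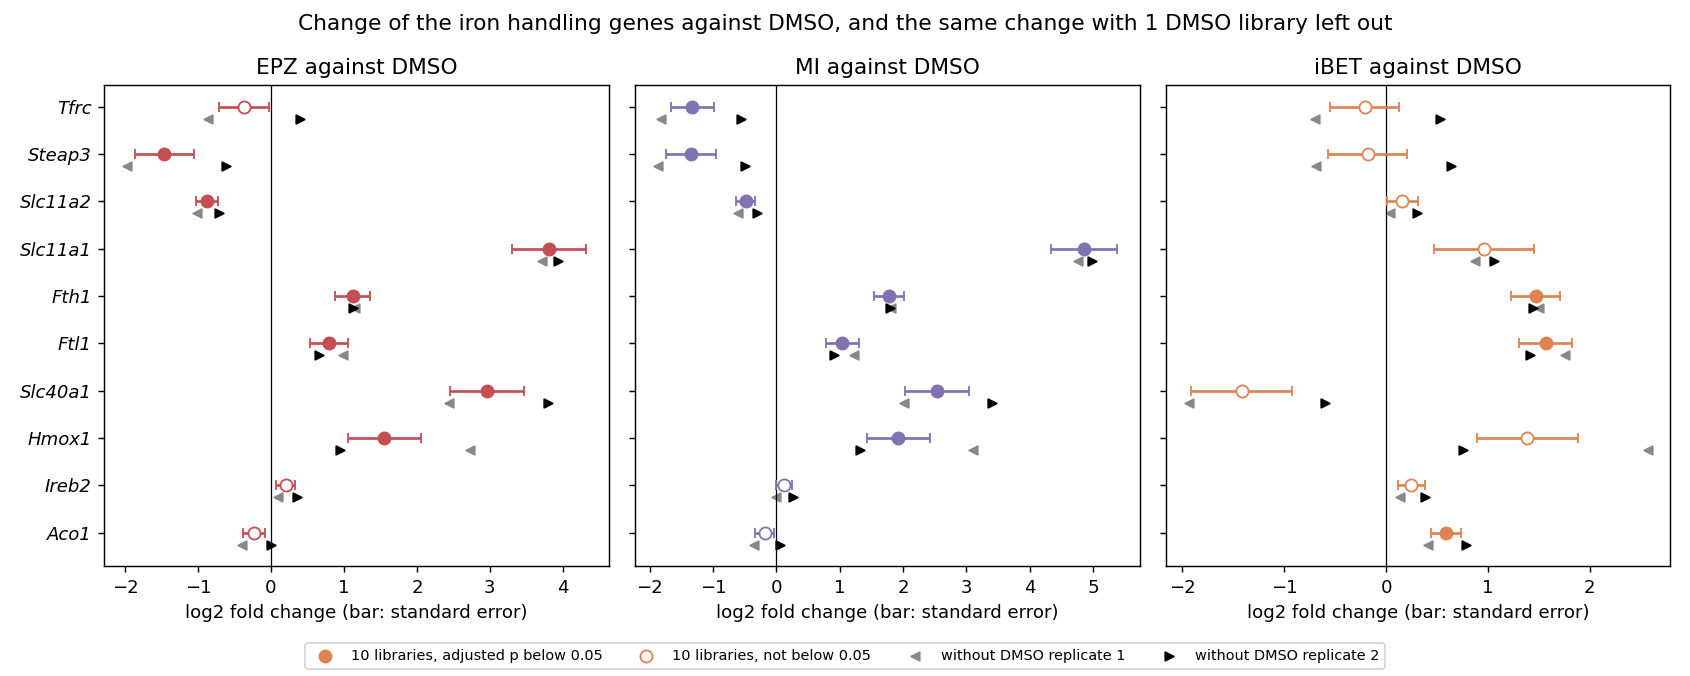
Log2 fold change of each iron handling gene against DMSO (horizontal axis) for EPZ, MI and iBET, with the standard error from the edgeR fit of 10 libraries. Filled circles had an adjusted p below 0.05, and the triangles give the change without DMSO replicate 1 (left-pointing) or DMSO replicate 2 (right-pointing). Fth1 and Slc11a1 hardly moved with the choice of DMSO library, whereas Tfrc changed its sign with EPZ and iBET and Hmox1 spanned 0.94 to 2.73 with EPZ.

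Ordered by mean level, most neighbouring conditions were not told apart by the test. For Slc40a1 the order was EPZ, MI, MM401, DMSO and iBET, and of these steps that between MI and MM401 passed the threshold (adjusted p = 0.0136). For Slc11a1 the step between EPZ and MM401 passed (adjusted p = 0.00458), and for Fth1 and Ftl1 the step between EPZ and MM401 did (adjusted p = 0.0137 and 0.0471). For Steap3 it was the step from iBET to MI (adjusted p = 0.0468) and for Slc11a2 that from DMSO to MI (adjusted p = 0.0331). No neighbouring step passed for Tfrc, Hmox1, Ireb2 or Aco1. Some of these steps rest on single libraries: that of Slc40a1 was lost without MM401 replicate 1 or MI replicate 2 (adjusted p = 0.0741 to 0.0908), that of Fth1 without any one of the MM401 and EPZ libraries (0.0507 to 0.0927), that of Ftl1 without any one of the MM401, EPZ and MI libraries (0.0503 to 0.234), and that of Steap3 without any one of the 8 inhibitor libraries (0.0637 to 0.211). That of Slc11a2 was lost without DMSO replicate 2 or any one of the MM401, MI and iBET libraries (0.058 to 0.155), and that of Slc11a1 held without any one library.

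The inhibitors were also compared with each other, which asks whether the genes answered the drugs alike. Of the 10 genes, 0 differed between EPZ and MI in edgeR, beside 0.0154% of all genes, with 4 at an unadjusted p below 0.05, and DESeq2 called 0. For Tfrc the difference of EPZ over MI was 0.96 ± 0.34 (adjusted p = 0.577). It passed the threshold in a fit of the 8 inhibitor libraries alone (0.96, adjusted p = 0.0274) and in the larger fit without DMSO replicate 1 or DMSO replicate 2 (adjusted p = 0.0257 and 0.0279). The count of 0 therefore does not show that EPZ and MI act alike on these genes.

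EPZ and iBET differed in 6 of the 10 genes, beside 37.6% of all genes, and MI and iBET in 6, beside 38.8%. The widest difference was in Slc40a1, which with EPZ exceeded iBET by 4.38 ± 0.55 on the log2 scale (adjusted p = 0.00098) and with MI by 3.96 ± 0.54 (adjusted p = 0.0015). Slc11a1 was higher than with iBET by 2.85 ± 0.47 with EPZ (adjusted p = 0.00309) and by 3.90 ± 0.49 with MI (adjusted p = 0.00112). Aco1 was lower than with iBET by -0.81 ± 0.15 (adjusted p = 0.00422) and -0.77 ± 0.15 (adjusted p = 0.00551). These 6 calls held without any one library. Slc11a2 was also lower, by -1.04 ± 0.15 with EPZ (adjusted p = 0.00172) and -0.65 ± 0.15 with MI (adjusted p = 0.0119), the latter lost without MI replicate 1 or iBET replicate 2 (adjusted p = 0.0756 to 0.0843).

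Less firm differences from iBET were those of Steap3, Ftl1 and Tfrc. Steap3 was at -1.28 ± 0.40 with EPZ (adjusted p = 0.0363) and -1.17 ± 0.39 with MI (adjusted p = 0.0468). Ftl1 was lower with EPZ by -0.77 ± 0.26 (adjusted p = 0.0458), and Tfrc was lower with MI by -1.12 ± 0.34 (adjusted p = 0.0331). The Steap3 and Tfrc calls were lost without any one of the 8 inhibitor libraries (adjusted p = 0.0513 to 0.211 and 0.0532 to 0.161). The Ftl1 call was lost without any one of them other than iBET replicate 1 (0.0528 to 0.291). In the fit of the 8 inhibitor libraries alone, all of these calls were made, at adjusted p of 0.00133 and 0.00187 for Steap3, 0.0278 for Ftl1 and 0.000453 for Tfrc.

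Against MM401, EPZ differed in 7 genes, beside 33.3% of all genes, and MI in 8, beside 35.7%. Slc40a1 was higher by 2.54 ± 0.50 with EPZ (adjusted p = 0.00792) and 2.12 ± 0.50 with MI (adjusted p = 0.0136), and Slc11a1 by 2.78 ± 0.47 (adjusted p = 0.00458) and 3.83 ± 0.49 (adjusted p = 0.00192). The Slc40a1 call of EPZ was lost without MM401 replicate 1 (adjusted p = 0.0626), and that of MI without MM401 replicate 1 or MI replicate 2 (0.0741 to 0.0908). Tfrc was lower with MI by -1.35 ± 0.34 (adjusted p = 0.0185), a call lost without any one of the MM401 and MI libraries (0.0704 to 0.1). The counts fell to between 2 and 4 when 1 of several libraries was left out: any one of the MM401, EPZ and MI libraries for EPZ, and any one of the MM401 and MI libraries for MI. Here DMSO takes no part in the difference, and the MM401 replicates were at most 2.0-fold apart in each of the 10 genes.

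Between iBET and MM401, 2 of the 10 genes differed, beside 11.4% of all genes: Fth1 by 1.38 ± 0.24 (adjusted p = 0.0127) and Ftl1 by 1.56 ± 0.26 (adjusted p = 0.0114), both higher with iBET. Both were lost without MM401 replicate 1, MM401 replicate 2 or iBET replicate 2 (adjusted p = 0.0886 to 0.109 and 0.0783 to 0.0947). In the fit of the 8 inhibitor libraries 5 differed, with Slc40a1 lower (-1.89, adjusted p = 0.0102) and Hmox1 (1.32, adjusted p = 0.00756) and Aco1 (0.48, adjusted p = 0.011) higher with iBET. In the fit of 10 libraries these 3 stood at -1.84 (adjusted p = 0.0526), 1.37 (adjusted p = 0.119) and 0.53 (adjusted p = 0.0538), and each passed without DMSO replicate 1 or DMSO replicate 2.

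**Figure D4:**
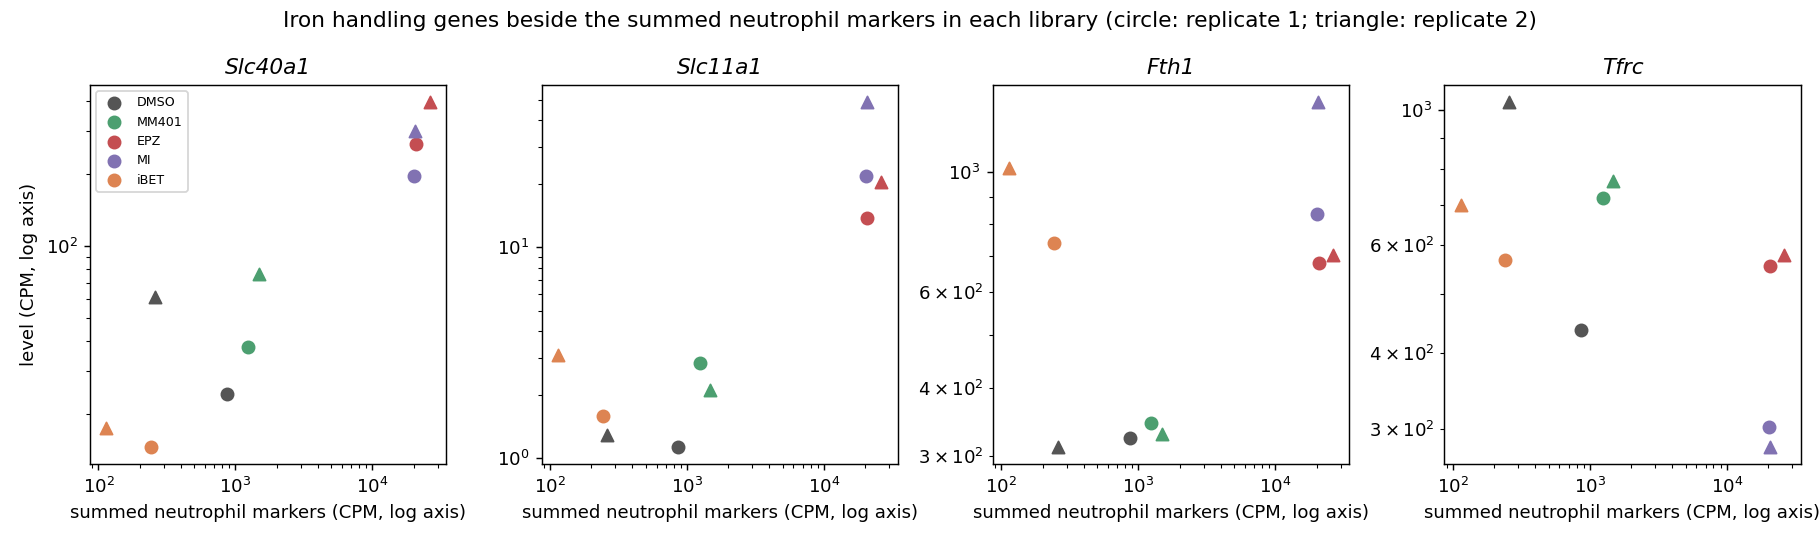
Level of Slc40a1, Slc11a1, Fth1 and Tfrc (vertical axis, CPM, log scale) against the summed level of 8 neutrophil markers (horizontal axis, CPM, log scale) in each of the 10 libraries. Slc40a1 and Slc11a1 were high in the EPZ and MI libraries, where the markers summed to 20294 to 26316 CPM, whereas Fth1 was also high in the iBET libraries, at 114 to 242 CPM of these markers.

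Markers moved in the libraries of all 3 of these inhibitors. With EPZ and MI, Slc40a1, Slc11a1, Fth1, Ftl1 and Hmox1 were called higher and Steap3 and Slc11a2 lower, and Tfrc was lower with MI. In these libraries 8 of 8 neutrophil and 8 of 10 macrophage markers were called higher, beside 18.7% and 20.2% of all genes. Of 8 progenitor markers 5 and 7 were called lower, beside 19.4% and 21.2%. With iBET, Fth1, Ftl1 and Aco1 were called higher. There 2 neutrophil, 2 macrophage and 2 progenitor markers were called lower, beside 7.54% of all genes, and 0 higher, beside 6.38%. There the neutrophil markers summed to 114 to 242 CPM against 259 to 867 with DMSO. The macrophage markers summed to 80.6 to 114 CPM against 121 to 124, and the progenitor markers to 6116 to 6934 against 10025 to 13854. Markers within a list did not all move alike. Vcam1, a macrophage marker, stood at 22.3 and 45.9 CPM with DMSO and at 1.1 and 0.574 with iBET. Cd14, Mrc1 and Cx3cr1 were also lower in both iBET libraries than in either DMSO library, while Emr1, C1qa and C1qb were higher. Of the progenitor markers Elane, Mpo, Prtn3, Myb and Kit were lower in this way and Ctsg higher. The part of these marker changes in the changes of the iron genes was not tested.

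The genes whose pattern over the 10 libraries was most like that of each iron gene were ranked among 9530 genes by Pearson's r of log2 CPM. These points share libraries, depth and only 5 conditions, so the values are a description. Nearest to Slc11a1 were Tmem106a (r = 0.990), the endosomal Toll-like receptor gene Tlr13 (0.988) and the taurine transporter gene Slc6a6 (0.986). Nearest to Slc40a1 were Igsf6 (0.987), Tnrc6b (0.986) and Pdzd8 (0.985). Fth1 was followed most closely by Psap, the precursor of lysosomal saposins (0.978), by Msn (0.978) and by Cdc42se2 (0.977), and Ftl1 by Rac1 (0.966), Gnptg (0.965) and Leprot (0.962). Among the iron handling genes themselves, the 2 ferritin genes had r = 0.898, yet Fth1 ranked only 78 in the order of Ftl1.

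Tfrc was nearest to the mitochondrial carrier gene Slc25a13 (0.960), the spindle gene Ska3 (0.955) and the nuclear lamin gene Lmnb1 (0.951). Steap3 was nearest to the splicing factor gene Prpf19 (0.993) and near to Heatr3 (0.990), and Slc11a2 to Tcf12 (0.987), Leo1 (0.984) and Pdia4 (0.984). Hmox1 was followed closely by Tmem134 (0.975) and Rab11fip5 (0.974). Aco1 was nearest to the mismatch repair gene Msh3 (0.988), Fut11 (0.987) and Depdc7 (0.987), and Ireb2 to Stk4 (0.965), Kin (0.958) and Foxn2 (0.948).

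Around the 10 genes stood a wider list of 93 genes of iron transport, sensing, heme and iron-sulfur clusters, 80 of which were tested. EPZ raised 12 and lowered 22 of them, beside 18.7% and 19.4% of all genes called in each direction, and MI raised 12 and lowered 20, beside 20.2% and 21.2%. Scaled to library totals these became 10 and 31 with EPZ and 10 and 28 with MI. iBET raised 5 and lowered 5, beside 6.38% and 7.54%. MM401 changed 0 in edgeR, beside 0.0% of all genes, with 8 at an unadjusted p below 0.05, beside 11.2% of all genes. DESeq2 called 1. Without single libraries the EPZ count of 34 fell to 21 (EPZ replicate 1) and 13 (EPZ replicate 2), and the MI count of 32 to 21 (MM401 replicate 2), 19 (MI replicate 1) and 14 (MI replicate 2). The iBET count of 10 became 25 and 20 without DMSO replicate 1 and 2, 5 without either MM401 library and 1 without either iBET library, and that of MM401 became 11 without DMSO replicate 1.

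The lowered genes gathered in iron-sulfur cluster assembly, the mitochondrial and cytosolic pathway that puts iron into enzymes. Of its 28 tested genes EPZ lowered 15 (53.6%, beside 19.4% of all genes) and raised 1, Nfu1 (0.51 ± 0.17, adjusted p = 0.0493). The Nfu1 call was lost in 9 of the 10 fits that left out 1 library (all but EPZ replicate 1, adjusted p = 0.0577 to 0.29), when scaled to library totals and with no filter. MI lowered 13 (46.4%, beside 21.2%) and raised 0. The median log2 fold change of the 28 was -0.56 with EPZ and -0.51 with MI, against -0.06 and -0.05 over all genes tested. iBET raised 1, the outer mitochondrial membrane protein gene Cisd1 (1.07 ± 0.21, adjusted p = 0.0187, lost without iBET replicate 1 or iBET replicate 2 at 0.0547 to 0.14), and lowered 0, with a median of 0.04. Without DMSO replicate 2 the lowered genes were 10 with EPZ and 7 with MI, without EPZ replicate 1 or 2 those of EPZ were 6 and 4, without MI replicate 1 or 2 those of MI were 5 and 4, and without MM401 replicate 1 or 2 they were 10 and 10 with EPZ and 8 and 7 with MI. For iBET, 2 rose and 4 fell without DMSO replicate 1, 4 rose and 1 fell without DMSO replicate 2, and 0 passed without either iBET library. Scaled to library totals, the lowered genes were 18 with each of the 2 inhibitors, at medians of -0.73 and -0.65, where the median of all genes moved to -0.23 and -0.20.

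Hspa9, the mitochondrial chaperone that passes on new iron-sulfur clusters, was at 549 and 610.2 CPM with DMSO, 213 and 201 with EPZ, 209 and 243 with MI and 387 and 469 with iBET. EPZ lowered it by -1.49 ± 0.15 (adjusted p = 0.00063) and MI by -1.36 ± 0.15 (adjusted p = 0.000744), and both calls held without any one library. Bola3, which helps hand clusters to target enzymes, fell from 19.4 and 28.8 CPM to 9.22 and 9.37 with EPZ (-1.37 ± 0.21, adjusted p = 0.00241). With MI, Bola3 stood at 10.7 and 10.9 CPM. Fdx1, the ferredoxin gene, fell with MI by -1.07 ± 0.16 (adjusted p = 0.00214). It stood at 27.8 and 25.7 CPM with DMSO, 14.1 and 15.6 with EPZ and 13.8 and 11.7 with MI.

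Of 11 tested regulators of iron and heme sensing, EPZ raised 5 (45.5%, beside 18.7% of all genes) and lowered 1 (9.09%, beside 19.4%). The lowered gene was Hif1a (-0.82 ± 0.17, adjusted p = 0.00794, lost without EPZ replicate 2 at 0.0598). MI raised 6 (54.5%, beside 20.2%) and lowered 1 (9.09%, beside 21.2%), and iBET raised 3 (27.3%, beside 6.38%). The gene lowered with MI was Skp1a (-0.42 ± 0.14, adjusted p = 0.0421), lost without DMSO replicate 1 or any one of the MM401, MI and iBET libraries (0.0554 to 0.194). Scaled to library totals, 5 were raised and 2 lowered with each of EPZ and MI. The medians were 0.53, 0.63 and 0.24. Without MI replicate 2 the MI calls were 4, without either MM401 library 1 was left with iBET, and without either iBET library 0 were left. Fbxl5, the ligase subunit that marks IRP2 for destruction when iron is plentiful, was at 103 and 55.5 CPM with DMSO, 235 and 287 with EPZ, 257 and 296 with MI and 101 and 89.4 with iBET. Its log2 fold change was 1.72 ± 0.27 with EPZ (adjusted p = 0.00252) and 1.80 ± 0.27 with MI (adjusted p = 0.00201). These were 2.24 and 2.32 without DMSO replicate 1 and 1.37 and 1.46 without DMSO replicate 2. Thus Fbxl5 rose by message in the same libraries in which Ireb2, which encodes its target, gave log2 fold changes of 0.20 and 0.12 that missed the threshold.

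Zfp36 encodes tristetraprolin, which destabilizes messages, that of Tfrc among them. It stood at 35.4 and 24.5 CPM with DMSO, 160.3 and 101 with EPZ, 199.9 and 159 with MI and 74.5 and 57.6 with iBET. Its log2 fold change was 2.12 ± 0.27 with EPZ (adjusted p = 0.00133), 2.58 ± 0.28 with MI (adjusted p = 0.000749) and 1.14 ± 0.27 with iBET (adjusted p = 0.0301), the last lost without DMSO replicate 2 or any one of the MM401 and iBET libraries (0.0622 to 0.172). Epas1, the gene of HIF-2α, rose with MI by 2.57 ± 0.37 from 1.48 and 0.959 CPM to 6.68 and 7.96 (adjusted p = 0.00183). It also stood above DMSO with EPZ, at 5.05 and 6.5 CPM, and with iBET, at 5.04 and 3.75. Nfe2l2, the gene of NRF2, rose by 1.10 ± 0.20 with EPZ (adjusted p = 0.00518), 0.91 ± 0.20 with MI (adjusted p = 0.00954) and 0.79 ± 0.20 with iBET (adjusted p = 0.0412). The iBET call of Nfe2l2 was lost without any one of the DMSO, MM401 and iBET libraries (0.0548 to 0.206). Bach1, the heme-sensing repressor of Hmox1, rose by 0.58 ± 0.13 with EPZ (adjusted p = 0.01) and 0.67 ± 0.13 with MI (adjusted p = 0.0055).

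Of 15 other genes of uptake and reduction, EPZ and MI each raised 4 (26.7%, beside 18.7% and 20.2% of all genes) and lowered 1 (6.67%, beside 19.4% and 21.2%). iBET raised 1 (6.67%, beside 6.38%) and lowered 2 (13.3%, beside 7.54%). Scaled to library totals, EPZ raised 4 and lowered 4. Their medians were -0.25, -0.23 and 0.13. Without DMSO replicate 1 the calls were 8, 9 and 7, without DMSO replicate 2 iBET had 5, without EPZ replicate 2 EPZ had 2, without MI replicate 2 MI had 3, and without either iBET library iBET had 1. Lcn2, a siderophore-binding protein of neutrophil granules and one of the neutrophil markers above, went from 75.6 and 13.5 CPM with DMSO to 1374 and 2275 with EPZ and 1325 and 1669.8 with MI, at log2 fold changes of 5.35 ± 0.86 (adjusted p = 0.0029) and 5.07 ± 0.85 (adjusted p = 0.00318). These were 7.08 and 6.80 without DMSO replicate 1 and 4.61 and 4.34 without DMSO replicate 2. Steap4, a plasma membrane metalloreductase, was at 0 reads in both DMSO libraries and at 0.304 to 1.32 CPM with EPZ and MI, too few reads for a fold. It is counted among the raised genes of EPZ and MI and passed the filter on low counts through these libraries; with a filter of 5 CPM in 2 libraries, 3 genes of 12 tested were raised by each. Slc39a8, the metal importer ZIP8, fell by -1.71 ± 0.32 with MI (adjusted p = 0.00473) and -3.30 ± 0.34 with iBET (adjusted p = 0.00292), where it stood at 1.99 and 2.41 CPM against 15.1 and 28.5 with DMSO. Mcoln1, a lysosomal channel that releases iron, stood at 60.1 and 70.3 CPM with MI and 55.2 and 68.2 with EPZ, against 39.4 and 34.4 with DMSO. It rose by 0.74 ± 0.15 with EPZ (adjusted p = 0.00757) and 0.93 ± 0.15 with iBET (adjusted p = 0.00989). These calls of Mcoln1 were lost without EPZ replicate 2 (0.0515) and without iBET replicate 1 or iBET replicate 2 (0.0681 to 0.0712).

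Of 14 genes of heme synthesis and breakdown, EPZ raised 1 (7.14%, beside 18.7% of all genes) and lowered 4 (28.6%, beside 19.4%), or 0 and 4 when scaled to library totals. MI raised 2 (14.3%, beside 20.2%) and lowered 3 (21.4%, beside 21.2%), or 1 and 4 in that scaling, and iBET lowered 2 (14.3%, beside 7.54%). The medians were -0.18, -0.27 and 0.11. These counts were small enough for 1 library to move them: over all omissions the calls ranged from 1 to 6, 3 to 6 and 0 to 5, and without DMSO replicate 2 they were 1, 3 and 5. Cpox, an enzyme of the late steps of heme synthesis, fell by -1.13 ± 0.19 with EPZ (adjusted p = 0.00367), -1.06 ± 0.19 with MI (adjusted p = 0.00436) and -0.76 ± 0.19 with iBET (adjusted p = 0.0387), the last lost without DMSO replicate 1 or any one of the MM401, MI and iBET libraries (0.0581 to 0.203). Alas1, the first and rate-limiting enzyme of heme synthesis outside red cells, fell with iBET from 594 and 452 CPM to 255 and 240.1 (-1.08 ± 0.19, adjusted p = 0.0132, lost without iBET replicate 1 or iBET replicate 2 at 0.0896 to 0.107). Blvrb, which reduces biliverdin, the product of heme oxygenase, rose with MI by 1.59 ± 0.42 (adjusted p = 0.018, lost without MI replicate 1 at 0.102), and by 2.39 and 1.12 without DMSO replicate 1 and 2. Of 8 genes of export and the hepcidin axis, EPZ raised 1 (12.5%, beside 18.7% of all genes), Neo1 (3.41 ± 0.68, adjusted p = 0.00675, and 5.05 and 2.71 without DMSO replicate 1 and 2). MI and iBET each lowered 1 (12.5%, beside 21.2% and 7.54%), the heme and urate exporter gene Abcg2. Abcg2 stood at 2.34 and 21.1 CPM with DMSO, and its change with MI was -2.61 ± 0.88 (adjusted p = 0.0445). It was -3.45 without DMSO replicate 1, -0.25 (adjusted p = 0.697) without DMSO replicate 2, and lost without any library other than DMSO replicate 1 (0.0636 to 0.697). With iBET the change of Abcg2 was -4.38 ± 0.98 (adjusted p = 0.0257), -5.23 without DMSO replicate 1 and -2.06 without DMSO replicate 2, lost without any one of the MM401 and iBET libraries (0.0513 to 0.167). Without DMSO replicate 1 the export genes had 5 calls each with EPZ and MI and 4 with iBET, the most over all omissions. The ferroxidase genes Heph and Hephl1 and the hepcidin genes Hamp and Hamp2 were below the filter on low counts. Of 4 genes of storage and ferritin turnover, 1 (25%) was lowered with each of EPZ and MI, beside 19.4% and 21.2% of all genes. It was Pcbp2, with EPZ (-0.38 ± 0.12, adjusted p = 0.041) and MI (-0.36 ± 0.12, adjusted p = 0.0439), calls lost without any library other than DMSO replicate 2 for EPZ and without any library for MI (0.0502 to 0.23). Ncoa4, the receptor that carries ferritin to the lysosome, was at 15.4 to 19.0 CPM with DMSO, MM401 and iBET. With EPZ and MI it was at 20.9 to 24.2 CPM and was not called.

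**Figure D5:**
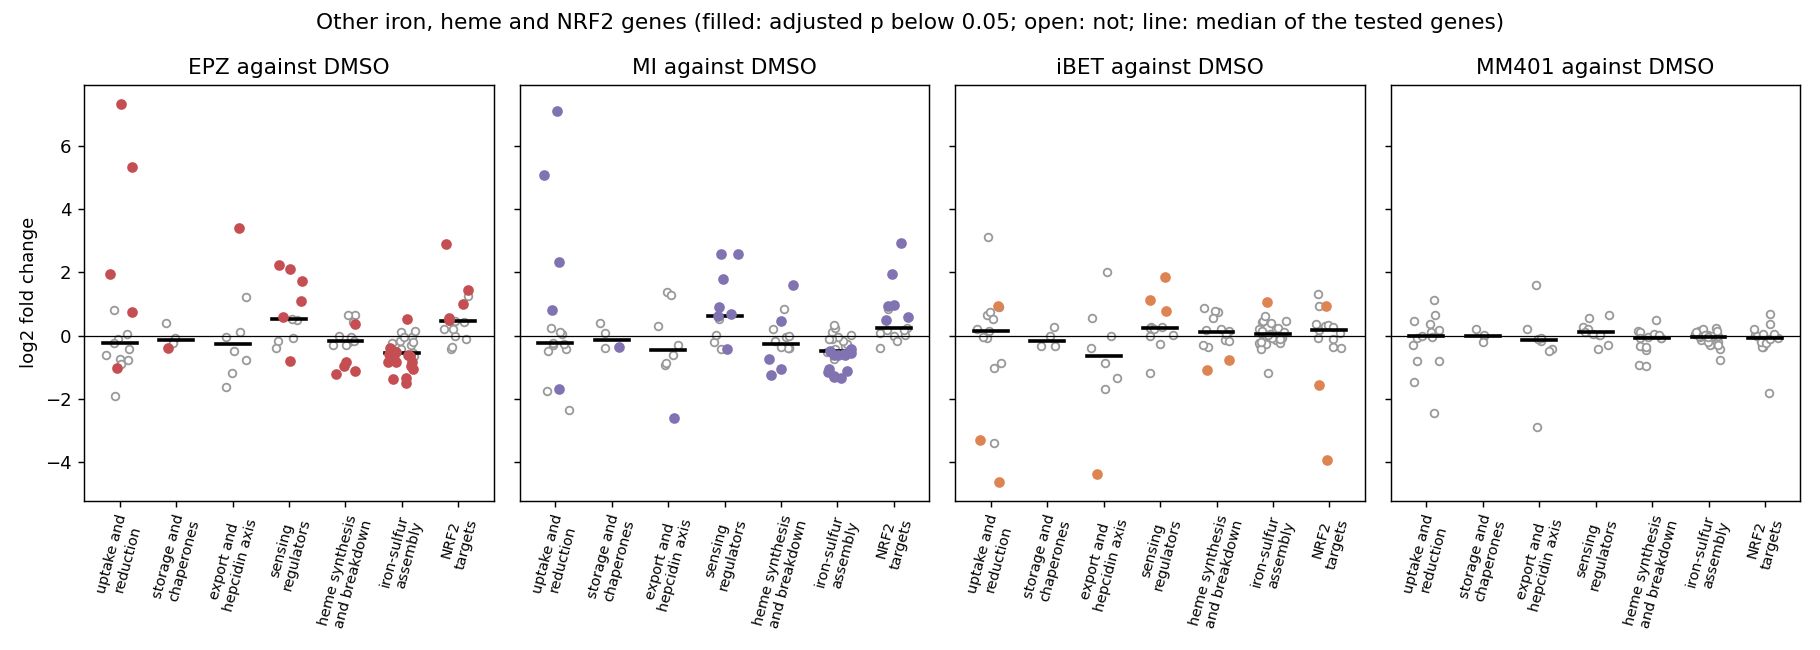
Log2 fold change against DMSO (vertical axis) of the tested genes of 6 iron and heme lists and of the NRF2 target list, in 4 panels for EPZ, MI, iBET and MM401. Each point is a gene, filled where the adjusted p was below 0.05, and lines are medians. The iron-sulfur genes lay mostly below 0 with EPZ and MI (medians -0.56 and -0.51). With MM401 no gene was called, beside 0.0% of all genes tested.

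Fth1, Ftl1 and Hmox1 are also known targets of NRF2, so 15 of its targets outside iron handling were set beside them. EPZ raised 5 of these (33.3%, beside 18.7% of all genes) and MI raised 6 (40%, beside 20.2%), with 0 lowered. iBET raised 1 (6.67%, beside 6.38%), Gclc (0.92 ± 0.22, adjusted p = 0.0302, lost without any one of the 8 inhibitor libraries other than those of MI at 0.0507 to 0.174). It lowered 2 (13.3%, beside 7.54%), Slc7a11 and Me1. The medians were 0.45, 0.24 and 0.17. Without DMSO replicate 1, EPZ raised 6 and lowered 2, and iBET raised 2 and lowered 3. Without DMSO replicate 2, iBET raised 3 and lowered 2. EPZ raised 3 or 2 without its replicate 1 or 2, MI raised 3 without either of its own, and iBET had 0 calls without either of its own. Scaled to library totals, EPZ raised 4 and lowered 2 and MI raised 5 and lowered 1. Nqo1, a quinone reductase often used to read NRF2 activity, stood at 11.5 and 1.2 CPM with DMSO, 6.13 and 3.78 with MM401, 53.4 and 42.6 with EPZ, 56.3 and 41.7 with MI and 22.3 and 9.3 with iBET. Its log2 fold change was 2.90 ± 0.85 with EPZ (adjusted p = 0.0295) and 2.93 ± 0.85 with MI (adjusted p = 0.0264). These were 5.32 and 5.35 without DMSO replicate 1 and 2.09 and 2.13 without DMSO replicate 2, and each call was lost without either replicate of its own inhibitor (0.0674 to 0.0941). Srxn1, sulfiredoxin, rose with MI by 0.93 ± 0.24 (adjusted p = 0.0156), lost without DMSO replicate 2, MI replicate 1 or MI replicate 2 (0.0514 to 0.0658). Slc7a11, the cystine importer gene, fell with iBET from 27.4 and 29.5 CPM to 9.68 and 9.41 (-1.57 ± 0.28, adjusted p = 0.0129), a call lost without iBET replicate 1 or iBET replicate 2. Gclm, a glutathione synthesis subunit, was not called with any inhibitor and stood at 78.0 to 181 CPM over the 10 libraries. Whether NRF2 had a part in the changes of Fth1, Ftl1 and Hmox1 was not tested.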

How the data were processed

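Per the labels, RNA from MAF9 cells was made into TruSeq libraries, and the authors deposited 1 table of raw read counts per gene. Their processing notes name TopHat2, Subread, DESeq and build mm9, and say nothing on multi-mapping reads or strand. No value was altered before the fits below. Genes passing edgeR's filterByExpr (12971 of 24015) were scaled by TMM and fitted over 10 libraries in 1 quasi-likelihood model (edgeR 4.0.16, R 4.3.3). DESeq2 1.42.0 was an alternative. The fit was tested on simulated data. CPM per kilobase used the first APPRIS principal transcript of GENCODE.

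The iron genes and all lists were chosen with earlier results of these data known, so none of them is independent evidence. From each other list, the 2 called genes with the smallest adjusted p per inhibitor and at least 5 CPM in the higher group were named by rule, as were 4 NRF2 targets and 3 pattern neighbours per gene; a few of these are not reported here. An inhibitor not named beside a gene picked by this rule is not thereby shown to have left that gene unchanged. Nfu1, Hif1a, Skp1a, Bach1, Steap4, Gclc, Me1, Ncoa4 and the genes below the filter were named after their values were seen. So were the single macrophage and progenitor markers. Alternatives were another scaling, other filters, a replicate block, fits of fewer groups and leaving out each library.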

Additional observations from a re-analysis of the deposited data

How the results depend on the processing

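Depth did not limit these genes, since even Slc11a1 had 27 reads or more per library. The limit was 2 libraries per condition, 1 of them a DMSO library unlike the rest. Of the gene-level values that were called, 334 of 358 kept direction and side of the threshold under alternatives other than leaving out a library, and 335 of 470 did when 1 library was left out; 0 reversed. Of those not called, 5 reversed: Tfrc with EPZ (-0.86 to 0.40 over the libraries left out) and with iBET (-0.70 to 0.53), Steap3 with iBET (-0.69 to 0.64) and Aco1 with MI (-0.36 to 0.06), each without DMSO replicate 2, and Ireb2 with MI (-0.03) when scaled to library totals. The cause was not tested. This tally leaves out the changes of single genes between MM401 and DMSO, of which 0 of 10 was called and 8 changed sign without 1 or the other DMSO library.

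With only the 2 groups compared in the fit, the calls among the 10 genes were 3 for EPZ, 2 for MI and 0 for iBET against DMSO (7, 7 and 4 at an unadjusted p below 0.05) and 5 for iBET against MM401, and among the wider list 5, 6 and 0 (22, 20 and 16 unadjusted). That fit has fewer libraries to estimate the spread from. DESeq2 gave 5 for iBET against DMSO, 5 for iBET against MM401, and 19 (iBET) and 1 (MM401) in the wider list. The fit of the 8 inhibitor libraries gave 1 for EPZ against MI and 5 for iBET against MM401. For iBET against MM401, scaling to library totals and a filter of 5 CPM in 2 libraries gave 4 each. Replicate numbers were shared by all groups, and samples of the same number deviated together (r = 0.278 to 0.666 over group pairs), but no source says that a number marks a batch; with the replicate number as a block, iBET against MM401 gave 4 calls and the wider list gave 19 with iBET, and the other counts over the 10 genes and over the whole wider list stayed within 1.5 times. The smaller lists moved more under the block: uptake from 5 to 9 with EPZ and 3 to 5 with iBET, export from 1 to 3 with EPZ and iBET and 1 to 2 with MI, storage from 1 to 2 with EPZ and MI, and iron-sulfur assembly from 1 to 5 with iBET. Of the 10 genes, Slc40a1 with iBET passed under the block against DMSO (-1.30, adjusted p = 0.0108) and MM401 (-1.75, adjusted p = 0.00471), and so did Aco1 against MM401 (0.53, adjusted p = 0.0207).

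Leaving out 1 library moved the calls among the 10 genes to between 4 and 9 for EPZ, 3 and 9 for MI, 0 and 6 for iBET and 0 and 0 for MM401 against DMSO. It moved them to between 0 and 1 for EPZ against MI, 4 and 6 for EPZ against iBET, 3 and 6 for MI against iBET, 2 and 8 for EPZ against MM401, 2 and 8 for MI against MM401, and 0 and 5 for iBET against MM401. In the wider list the calls lay between 13 and 44 for EPZ, 14 and 43 for MI, 1 and 25 for iBET, and 0 and 11 for MM401.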
